A study of Mus musculus with 18 samples.

Results

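The major urinary protein (Mup) genes are a family of lipocalin genes that lie side by side on mouse chromosome 4, and the 10 genes described here are Mup1, Mup2, Mup3, Mup5, Mup7, Mup8, Mup9, Mup17, Mup19 and Mup20. They were chosen by earlier results of the same peak lists, which had shown differences between strains in this region, so the values are given as a description with no test. All peaks of the 9 lists were merged into 51957 sites, and the 46 sites with any base in a 2.1-Mb window of chromosome 4 (mm9) around these genes were kept. In the GENCODE M1 annotation of that build, all 10 lie on the minus strand: Mup7 at 60079341 to 60083347, Mup2 at 60080259 to 60167161, Mup8 at 60231493 to 60235471, Mup9 at 60430918 to 60434824, Mup1 at 60510884 to 60514832, Mup17 at 61252961 to 61256903, Mup19 at 61439358 to 61443322, Mup5 at 61492353 to 61496267, Mup20 at 61711268 to 61715192 and Mup3 at 61744510 to 61748376. The last site before this window, at 59876815 to 59877022, was called in 1 list, and the first site after it, at 62021131 to 62022499, in 9 lists.

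Major urinary proteins are small secreted carriers with a barrel-shaped pocket for volatile and lipophilic molecules. The liver makes most of them, the kidney passes them into urine, and there they release pheromones slowly and act as signals of sex, identity and ownership. Male liver makes more of them than female liver, under the pulsatile growth hormone of males. Mup20 encodes darcin, a male pheromone in its own right, and Mup5 is best known from salivary glands. The genes of the middle of the cluster arose by recent duplications and are close copies of each other, whereas genes toward its ends, such as Mup3, Mup5 and Mup20, are more diverged.

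Open chromatin was measured by FAIRE-seq, in which fixed chromatin is sheared and the DNA not bound tightly by nucleosomes is recovered and sequenced, in 18 livers of male mice fed a high-fat, high-sucrose diet for 8 weeks from 8 weeks of age. The mice came from 9 strains with 2 mice each. The inbred strains were AKR/J, A/J, BALB/cJ, C3H/HeJ, C57BL/6J, CBA/J and DBA/2J, and the recombinant inbred ones, bred from C57BL/6J and C3H/HeJ, were BXH19/TyJ and BXH2/TyJ. One peak list per strain joined both mice, so no value below has a replicate error, and a difference between lists cannot be set against the spread between mice. All mice shared sex, tissue and diet, and bulk liver was used, so fewer cells with an open site and less opening per cell cannot be told apart.

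The lists held 26769 to 30613 peaks. The study's own read totals per mouse were not used here, so the part of sequencing depth in any difference between lists was not tested. The A/J list stood apart, with 5920 sites that no other list called against 534 to 1427 for the other lists. As a check of tissue, a site lay within 1 kb of a start of 5 of 5 hepatocyte markers, 3 of 3 endothelial, 3 of 3 stellate, 2 of 3 cholangiocyte and 0 of 3 Kupffer cell markers, and of 59.6% of 22380 protein-coding genes. The sites at Apoa1 and Hnf4a were called in 9 lists, that at Ttr in 8, that at Alb in 2 and that at Cps1 in 1. Among the other markers, Sox9 had its site called in 9 lists, Stab2 in 6, Clec4g in 5, Reln in 2 and Lrat in 1, and those at Des, Kdr and Epcam were called in A/J only. The strength of a peak is given as the percentile of its F-seq signal value among the peaks of its own list, where 100 is the strongest, since the signal values were not on 1 scale between lists (their medians ran from 0.118 to 0.64).

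Sites are numbered 1 to 46 along the chromosome. Several sites were near copies of each other, and their mm9 sequences are printed to show the repeated architecture of the cluster. The first set lay just upstream of the starts of Mup7 (site 2), Mup11 (site 15) and Mup18 (site 24) and of the pseudogenes Mup-ps13 (site 18) and Mup-ps15 (site 25). Each stretch is the part that aligned to the site at Mup18, written 5′ to 3′ toward the gene, with capitals where a base differs from the base aligned to it at Mup7 or has none there.
site 2, chr4:60083937-60084148 (mm9, minus strand): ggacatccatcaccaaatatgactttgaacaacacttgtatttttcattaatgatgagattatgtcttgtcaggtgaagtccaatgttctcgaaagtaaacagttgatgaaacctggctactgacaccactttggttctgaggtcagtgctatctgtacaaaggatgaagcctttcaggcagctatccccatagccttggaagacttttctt
site 15, chr4:60675963-60676116 (mm9, minus strand): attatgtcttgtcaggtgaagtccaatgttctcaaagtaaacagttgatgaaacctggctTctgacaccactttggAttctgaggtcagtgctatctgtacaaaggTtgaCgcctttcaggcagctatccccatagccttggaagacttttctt
site 18, chr4:61194290-61194501 (mm9, plus strand): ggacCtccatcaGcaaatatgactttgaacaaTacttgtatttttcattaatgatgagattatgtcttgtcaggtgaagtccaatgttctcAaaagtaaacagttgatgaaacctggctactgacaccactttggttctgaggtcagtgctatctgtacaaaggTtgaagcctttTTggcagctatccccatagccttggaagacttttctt
site 24, chr4:61335843-61336055 (mm9, minus strand): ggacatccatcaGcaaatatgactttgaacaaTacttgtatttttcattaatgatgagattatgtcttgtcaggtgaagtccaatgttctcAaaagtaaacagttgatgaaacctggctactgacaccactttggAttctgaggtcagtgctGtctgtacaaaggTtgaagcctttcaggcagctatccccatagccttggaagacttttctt
site 25, chr4:61358902-61359114 (mm9, plus strand): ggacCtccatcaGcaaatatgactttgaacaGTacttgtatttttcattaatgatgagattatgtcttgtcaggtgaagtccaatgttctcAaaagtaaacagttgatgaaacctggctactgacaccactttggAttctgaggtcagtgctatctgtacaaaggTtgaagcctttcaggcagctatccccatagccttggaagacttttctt

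At Mup7, Mup18 and both pseudogenes the stretches were 212 or 213 bases long, and identity to the Mup7 copy was 97.6% at Mup18, 96.7% at Mup-ps13 and 97.2% at Mup-ps15. The Mup11 stretch was shorter because its alignment ended after 154 bases, over which identity was 98%. The sites upstream of Mup20 (site 39) and Mup3 (site 40) fell under the limit of 90% identity over 100 bases to any other site. Their central 200 bases are printed for comparison, toward the gene and wholly in lower case.
site 39, chr4:61715969-61716168 (mm9, minus strand): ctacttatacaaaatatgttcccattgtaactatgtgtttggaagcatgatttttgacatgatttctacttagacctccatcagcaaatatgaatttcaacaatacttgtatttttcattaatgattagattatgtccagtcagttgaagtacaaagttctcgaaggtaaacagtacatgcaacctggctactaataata
site 40, chr4:61749177-61749376 (mm9, minus strand): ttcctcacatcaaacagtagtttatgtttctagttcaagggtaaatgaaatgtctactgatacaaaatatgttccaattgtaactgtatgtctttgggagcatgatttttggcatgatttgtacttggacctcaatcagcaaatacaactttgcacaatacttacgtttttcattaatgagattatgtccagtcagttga

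A second set lay 9470 bases upstream of the Mup7 start (site 3), 9433 upstream of Mup10 (site 14), 8668 upstream of Mup16 (site 16) and 9347 upstream of Mup19 (site 26). The stretches that aligned to the site at Mup10 are given on the minus strand, with capitals for differences from site 3. They run 10 bases past the edge of site 3 and 6 bases past that of site 26.
site 3, chr4:60092807-60092988 (mm9, minus strand): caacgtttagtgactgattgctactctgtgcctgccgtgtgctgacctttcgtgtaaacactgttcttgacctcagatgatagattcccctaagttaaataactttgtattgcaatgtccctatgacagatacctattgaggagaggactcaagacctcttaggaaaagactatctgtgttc
site 14, chr4:60604504-60604686 (mm9, minus strand): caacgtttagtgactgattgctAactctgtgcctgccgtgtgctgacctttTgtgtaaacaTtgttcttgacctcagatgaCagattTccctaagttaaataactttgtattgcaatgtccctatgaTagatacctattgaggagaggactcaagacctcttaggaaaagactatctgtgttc
site 16, chr4:61189408-61189590 (mm9, minus strand): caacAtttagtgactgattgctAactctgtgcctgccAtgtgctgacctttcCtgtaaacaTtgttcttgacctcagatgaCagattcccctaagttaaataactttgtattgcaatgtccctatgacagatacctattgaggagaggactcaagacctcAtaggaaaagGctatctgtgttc
site 26, chr4:61452663-61452845 (mm9, minus strand): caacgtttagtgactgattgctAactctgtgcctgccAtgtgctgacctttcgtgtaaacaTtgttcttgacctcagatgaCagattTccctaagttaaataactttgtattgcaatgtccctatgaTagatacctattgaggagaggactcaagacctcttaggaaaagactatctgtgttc

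Another set lay 29739 bases downstream of the nearest annotated start of Mup2 (site 5, in an intron of the long annotated form of that gene), 29727 bases from that of Mup8 (site 6) and 23694 from that of Mup17 (site 22). Site 6 matched site 5 at 94% of 300 aligned bases and site 22 at 92.9% of 297, with capitals for differences from site 5.
site 5, chr4:60122731-60123030 (mm9, minus strand): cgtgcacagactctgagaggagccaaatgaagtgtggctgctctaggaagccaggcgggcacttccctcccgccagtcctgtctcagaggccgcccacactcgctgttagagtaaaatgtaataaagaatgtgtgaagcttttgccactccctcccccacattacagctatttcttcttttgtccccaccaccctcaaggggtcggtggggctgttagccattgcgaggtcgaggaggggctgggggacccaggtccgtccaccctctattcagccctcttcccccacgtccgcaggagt
site 6, chr4:60205404-60205703 (mm9, minus strand): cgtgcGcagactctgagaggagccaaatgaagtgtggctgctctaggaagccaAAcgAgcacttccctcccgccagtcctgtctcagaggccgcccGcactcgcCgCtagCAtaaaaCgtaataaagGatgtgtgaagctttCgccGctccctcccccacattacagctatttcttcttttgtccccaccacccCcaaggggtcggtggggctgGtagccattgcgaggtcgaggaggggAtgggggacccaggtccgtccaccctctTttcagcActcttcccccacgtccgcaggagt
site 22, chr4:61232590-61232886 (mm9, minus strand): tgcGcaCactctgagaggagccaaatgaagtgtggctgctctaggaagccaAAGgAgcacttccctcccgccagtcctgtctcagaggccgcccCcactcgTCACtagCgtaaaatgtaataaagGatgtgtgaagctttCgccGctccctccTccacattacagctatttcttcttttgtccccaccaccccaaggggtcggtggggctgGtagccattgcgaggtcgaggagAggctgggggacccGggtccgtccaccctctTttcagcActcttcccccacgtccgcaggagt

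In the plot of distances from Mup starts, the sites about 9 kb upstream and those at Mup7, Mup11 and Mup18 fall at like distances. Sites 18 and 25 do not: they lie next to pseudogenes and are 13712 and 23723 bases from the nearest Mup gene start, and site 22 is nearer to its start than sites 5 and 6. Beside these sets, sites 7 and 27, sites 10 and 23, sites 13 and 19, and sites 29 and 43 formed related pairs.

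**Figure D1:**
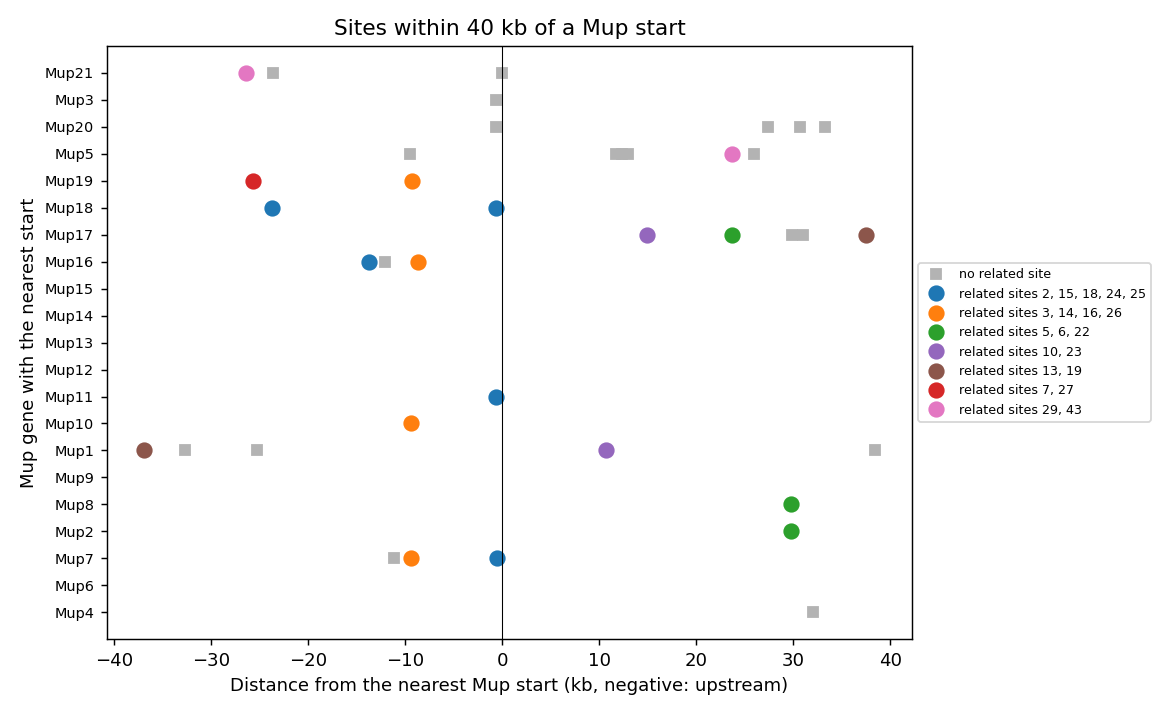
Position of the 39 sites within 40 kb of a Mup start, in kb from the nearest annotated Mup start (negative is upstream), with 1 row per Mup gene in chromosome order. Circles of 1 color are sites with at least 90% identity over at least 100 bases, directly or through another site of the set, and grey squares have no related site. The set of sites 2, 15 and 24 sits just upstream of 3 starts, and sites 3, 14, 16 and 26 sit about 9 kb upstream of 4 starts.

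Of the 46 sites, 40 lay inside the Mup array, from the first to the last of 21 annotated Mup genes over 1.842 Mb, and 6 in its flanks. Placed by the annotation, 35 sites were intergenic, 6 intronic and 5 exonic. The window held 21.9 sites per Mb, beside 24.4 on chromosome 4 and 19.6 over the genome. By this union of lists the window was no poorer in sites than the genome, though poorer than chromosome 4. Most single lists called a smaller share of the window sites than of all sites, as given below. Within 1 kb of any annotated start lay 12 of the 46 sites (26.1%), against 35.5% of all sites.

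Assigned to the nearest of the 10 members by gene body, every member received at least 1 site. Mup17 received 9, Mup1, Mup3 and Mup5 received 7 each, Mup20 received 6, Mup2 received 4, Mup8 and Mup19 received 2 each, and Mup7 and Mup9 received 1 each. Distance was not limited, so these counts do not mean open sites at each gene. The site of Mup7 (site 1) lay 137753 bases away, while site 2, just upstream of the Mup7 start, counted for Mup2. Sites 41 to 46, counted for Mup3, lay 63470 to 198861 bases from it. When all annotated genes could be the nearest, 11 sites stayed with a member: 4 with Mup2, 4 with Mup17 and 1 each with Mup5, Mup8 and Mup20. The other 35 sites were nearest to other genes, among them Mup pseudogenes and the neighbors Zfp37 and Slc31a2. This count depended on the annotation, with 32 sites nearest to a member among protein-coding genes only and 7 by the nearest start. The 4 sites of Mup2 lay in an intron of an annotated form of Mup2 that spans 86903 bases and overlaps part of Mup7. Of these, 3 (sites 2, 3 and 4) lay upstream of Mup7 itself.

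At the starts, 3 of 10 members had a site within 1 kb, all upstream: Mup7 at 561 bases, Mup20 at 674 and Mup3 at 631. Among all 21 Mup genes, Mup11, Mup18 and Mup21 made it 6. AKR/J called all 6 of these sites, BXH19/TyJ called those at Mup3 and Mup21, and the other 7 lists called none. Outside the cluster, the sites at the hepatocyte marker Alb and the male-biased gene Ugt2b1 were also called in AKR/J and BXH19/TyJ only. The site at Hsd3b5, another male-biased gene, was called in AKR/J only. Sites at the other marker, lipocalin and male-biased genes were called in other sets of lists.

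At Mup7, the AKR/J peak stood at percentile 25.3 with its summit 709 bases from the start. At Mup20, the darcin gene, the AKR/J peak stood at percentile 39.7 with its summit at 818 bases. At Mup3, the AKR/J peak stood at percentile 12 and the BXH19/TyJ peak at 12.5, with summits 854 and 793 bases from the start. All 4 peaks were weaker than the median peak of their list. Over the genome, 1427 sites (2.75%) were called by AKR/J alone and 645 (1.24%) by AKR/J and BXH19/TyJ alone, and the part of these lists' own properties in the result was not tested.

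The remaining members had their closest site farther away, measured from the start of the transcript nearest to 4 kb in length. It lay 9347 bases from the start of Mup19, 9551 from Mup5, 13308 from Mup1, 15057 from Mup17 and 38738 from Mup9, and the sites of Mup2 and Mup8 were sites 5 and 6 above. The site upstream of Mup5 (site 33) was called in AKR/J only, at percentile 50.7, and that upstream of Mup19 (site 26) in AKR/J at 59, C3H/HeJ at 37.8, DBA/2J at 34.8 and CBA/J at 16.1. A site lay within 1 kb of a start of 8 of 10 lipocalin genes outside the cluster, 7 of 10 male-biased growth hormone dependent genes and 3 of 10 members, beside the 59.6% of protein-coding genes, and Apod and Ptgds were the lipocalin genes without one. At 8 of the 10 members only 12.3% to 65.7% of the kilobase upstream of the start was unique sequence, and the part of this in the count was not tested. Ambp, C8g and Orm2, which encode lipocalins secreted by liver, and Elovl3 and Cyp2u1 of the male-biased list had theirs in all 9 lists, which held for no member and for 41.2% of protein-coding genes.

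Sites of the window were shared by few strains. Only 1 of 46 (2.17%) was called in all 9 lists, against 26.6% of all sites, and it was site 46 in an exon of the copper transporter family gene Slc31a2, outside the Mup array. It stood lowest in C57BL/6J, at percentile 28.5, and highest in A/J, at 85.3. Calls in 1 list only made up 22 of 46 (47.8%), against 26.5% of all sites. The median was 2 lists per site in the window and 5 over the genome. Without the A/J list, 22 of 46 window sites and 21.4% of all sites were called in 1 list, and without the DBA/2J list 14 of the 36 window sites left (38.9%) and 26.8% of all sites. Of the 11 sites nearest to a member, 7 were called in 1 list and 0 in all 9.

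**Figure D2:**
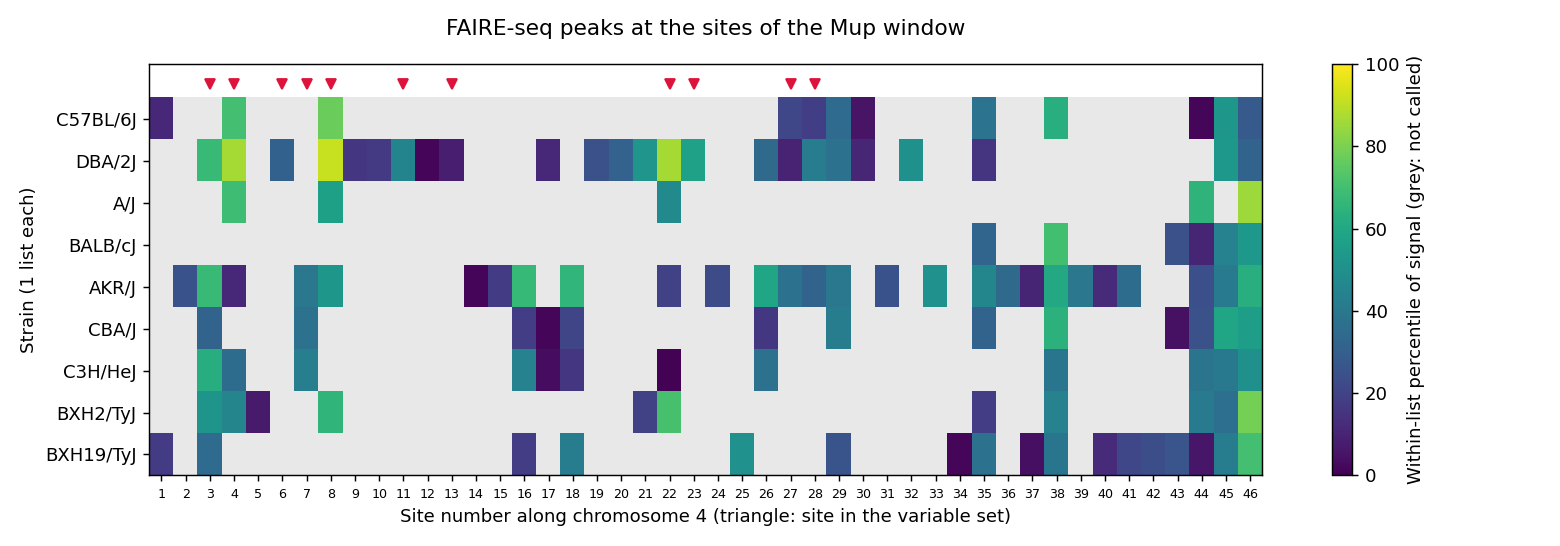
Within-list percentile of the F-seq signal value at the 46 sites of the window (columns, in chromosome order) in the 9 strains (rows, 1 list each), with grey for no peak and red triangles for the 11 sites of the variable set. DBA/2J and AKR/J have the most filled cells (24 and 27), A/J and BALB/cJ the fewest (5 and 6), and sites 44 to 46 outside the array are called in 8 or 9 lists.

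The strains differed widely in how much of the window they called. AKR/J called 27 sites (58.7%, against 54.3% of all sites) and DBA/2J 24 (52.2% against 46.7%), so both were above their own genome-wide share. BXH19/TyJ called 17 (37% against 55.4%), CBA/J 13 (28.3% against 56.9%), C57BL/6J 12 (26.1% against 54.9%), C3H/HeJ 12 (26.1% against 56.1%) and BXH2/TyJ 11 (23.9% against 54.8%). BALB/cJ called 6 (13% against 56.4%) and A/J 5 (10.9% against 54.5%), the fewest. With the 20000 strongest peaks of each list, BALB/cJ called the fewest (3), and A/J and CBA/J called 5 each. Inside the array alone, AKR/J called 24 of 40 sites, DBA/2J 22, A/J 3 and BALB/cJ 2, and BALB/cJ called 4 of the 6 flanking sites.

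**Figure D3:**
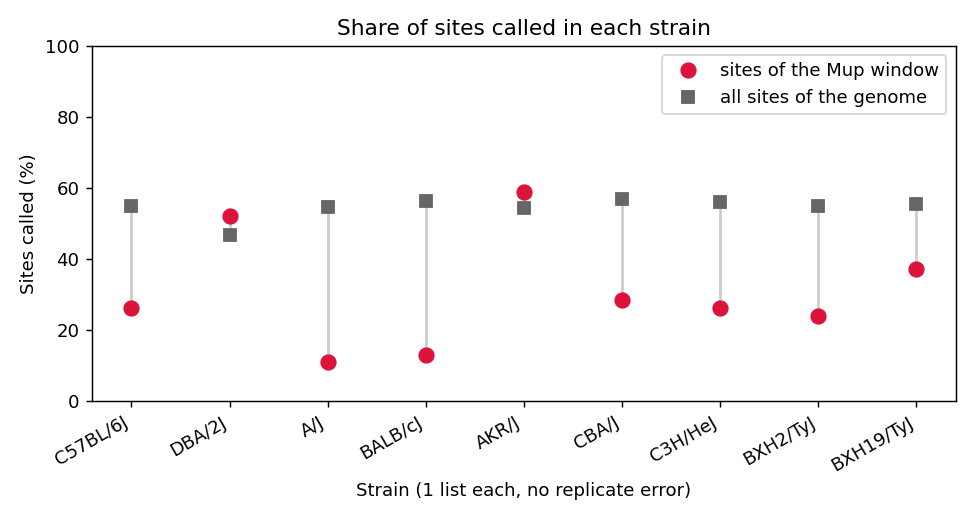
Share of sites called in each strain's list, in percent, for the 46 sites of the window (red circles) and all 51957 sites (grey squares), with no error bars since each strain has 1 list. The red circle lies above the grey square in DBA/2J and AKR/J and below it in the other 7 strains, lowest in A/J at 10.9%.

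Sites private to 1 list came from 4 strains: 10 from DBA/2J, 8 from AKR/J, 3 from BXH19/TyJ and 1 from BXH2/TyJ. Over the genome, sites private to these lists made up 2.09%, 2.75%, 1.03% and 1.54% of all sites. A/J, whose private sites made up 11.4% of all sites, had 0 in the window. The pair of strains with the most similar calls was C3H/HeJ and CBA/J, which shared 10 sites, 66.7% of those called in either, against 73.7% over the genome. DBA/2J and BALB/cJ shared 3 sites, 11.1% of those called in either, against 60.2% over the genome. Every pair of strains shared a smaller part of its sites in the window than over the genome.

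The authors' variable and common sets hold the sites with the most and the least evidence of a strain difference in read counts over the 7 inbred strains, each 5% of the 50775 sites of those strains. Both sets were selected on these same libraries, so membership is no independent evidence. Of the 42 sites of the window in the inbred lists, 11 (26.2%) were in the variable set against 5% of all sites, and 0 were in the common set against 5%. All 11 lay inside the Mup array. Per length, the window held 5.24 variable sites per Mb and the genome 0.956. DBA/2J called 10 of the 11, AKR/J 7, C57BL/6J, C3H/HeJ and BXH2/TyJ 4 each, A/J 3, CBA/J 2, BXH19/TyJ 1 and BALB/cJ 0. Of the 2532 sites over the genome that overlap the variable set, DBA/2J called 36.8%, AKR/J 36.2%, A/J 64.4% and the other 6 strains 33.1% to 46.3%, so the strain with the most variable sites over the genome was A/J and in the window DBA/2J.

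Of the variable sites, 5 were nearest to members, 2 of them in the intron of Mup2. Site 3, at 60092817 to 60093149, stood at percentile 67.9 in DBA/2J, 67.2 in AKR/J, 62.2 in C3H/HeJ, 51.7 in BXH2/TyJ, 34.8 in BXH19/TyJ and 31.8 in CBA/J, with no peak in C57BL/6J, A/J or BALB/cJ. Site 4, at 60094525 to 60094797, stood at 86.5 in DBA/2J, 70.1 in C57BL/6J, 69 in A/J, 45.4 in BXH2/TyJ, 35.2 in C3H/HeJ and 11.6 in AKR/J. It had no peak in BALB/cJ, CBA/J or BXH19/TyJ. These neighboring sites thus ordered the strains differently, AKR/J being near the top at the first and the lowest of the lists with a peak at the second.

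Near Mup17, site 22 at 61232467 to 61233098 stood at percentile 86.3 in DBA/2J, 70.7 in BXH2/TyJ, 48 in A/J, 19.6 in AKR/J and 0.67 in C3H/HeJ. Its near copies showed less: site 6 at 60205367 to 60205725, nearest to Mup8, was a variable site called in DBA/2J only, at 31, and site 5 in the Mup2 intron was called in BXH2/TyJ only, at 7.15. Site 23 at 61241528 to 61241846, the other variable site of Mup17, was called in DBA/2J only, at 57.3. The strongest peak of the window was at site 8, at 60388209 to 60388486 between Mup8 and Mup9, with 91.5 in DBA/2J, 77.1 in C57BL/6J, 65.5 in BXH2/TyJ, 56.9 in A/J and 53 in AKR/J.

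Sites 4, 8 and 22 were the ones called in A/J within the array, and DBA/2J, AKR/J and BXH2/TyJ each called all 3 as well. Site 7 at 60320191 to 60320458 stood at 42.9 in C3H/HeJ, 39.6 in AKR/J and 37.9 in CBA/J, whereas site 27 at 61468999 to 61469363 stood at 37.6 in AKR/J, 21.5 in C57BL/6J and 9.86 in DBA/2J. Site 28, at 61469589 to 61470326 and like site 27 between Mup19 and Mup5, stood at 42 in DBA/2J, 31.7 in AKR/J and 18.7 in C57BL/6J, the same 3 strains. The last variable sites, 11 at 60540105 to 60540422 and 13 at 60551835 to 60552362, lay upstream of Mup1 and were called in DBA/2J only, at 44.9 and 8.23.

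Near copies also differed in their calls. Of the set upstream of starts, sites 2, 15 and 24 at Mup7, Mup11 and Mup18 were called in AKR/J only, at percentiles 25.3, 17.9 and 23.4. Its copy upstream of Mup-ps13, site 18, stood higher, at 65.8 in AKR/J, 42.3 in BXH19/TyJ, 20.9 in CBA/J and 15.9 in C3H/HeJ, and that upstream of Mup-ps15, site 25, was called in BXH19/TyJ only, at 50.6. In this small set, the copies upstream of pseudogenes were thus called in more lists or at higher percentiles than those upstream of genes. Unique sequence made up 100% of site 18 and 65.6% of site 25, beside 82.4%, 61.25% and 84.5% of sites 2, 15 and 24. The part of this in the difference was not tested. Of the set about 9 kb upstream, site 16 stood at 66.8 in AKR/J, 44.4 in C3H/HeJ, 18.3 in CBA/J and 18.1 in BXH19/TyJ, whereas site 14 was called in AKR/J only, at 1.55. Sites 3, 16, 18 and 26 were each called in AKR/J, CBA/J and C3H/HeJ and in none of C57BL/6J, A/J and BALB/cJ. The same held for site 7, which belongs to neither set. Sites 2, 14, 15, 24 and 25 of these sets were called in neither CBA/J nor C3H/HeJ.

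Outside the variable set, site 38 at 61687148 to 61687762, downstream of Mup20, was among the 5 sites with the largest spread. It stood at percentile 69.6 in BALB/cJ, 64.3 in CBA/J, 62.6 in C57BL/6J, 60.3 in AKR/J, 44.5 in BXH2/TyJ, 39 in C3H/HeJ and 38.8 in BXH19/TyJ, with no peak in DBA/2J or A/J. This site and site 35, farther downstream of Mup20, were the only array sites called in BALB/cJ. Over the 7 inbred strains, with 0 for no peak, the median SD of percentiles was 19.5 at the 10 sites nearest to members with an inbred peak, 14.8 at the 42 window sites and 12 over all sites.

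Each recombinant strain carries a mosaic of both parents, and its pattern along the cluster was not given in the files used here. Only one of C57BL/6J and C3H/HeJ was called at 14 of 46 sites (30.4%), against 24% of all sites, of which 7 were called in C57BL/6J and 7 in C3H/HeJ. BXH2/TyJ called 2 of the 7 C57BL/6J sites (8 and 35) and 2 of the 7 C3H/HeJ sites (3 and 22). BXH19/TyJ called 3 of the 7 C57BL/6J sites (1, 29 and 35) and 3 of the 7 C3H/HeJ sites (3, 16 and 18). Neither list kept to 1 parent along the array, and neither called site 7, 17, 26, 27, 28 or 30. Of these sites not yet described, site 35 at 61637214 to 61637965 stood at percentile 46 in AKR/J, 38.1 in C57BL/6J, 37.2 in BXH19/TyJ, 32.5 in BALB/cJ, 32 in CBA/J, 18.3 in BXH2/TyJ and 15.4 in DBA/2J. Site 29, between Mup19 and Mup5, stood at 41.9 in CBA/J, 40 in AKR/J, 37.65 in DBA/2J, 34.8 in C57BL/6J and 25.9 in BXH19/TyJ. Sites 1, 17 and 30 were weak, with highest percentiles of 17.3, 11.2 and 10.7. Over the genome, BXH2/TyJ called 32.4% of the C57BL/6J sites and 44.4% of the C3H/HeJ sites, and BXH19/TyJ 33.6% and 47.3%. BXH19/TyJ also called 7 of the 27 sites that neither parent called (25.9%, against 14.8% over the genome), and BXH2/TyJ 2 (7.41% against 19.6%).

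The authors kept only reads with a single location in the genome, and the Mup genes are repeated. The share of start positions whose next 170 bases have no other exact copy in mm9 was 60.7% over the window and 55.7% over the Mup array. The longest stretch with no site, 60676174 to 61189230, spans 513 kb with Mup12 to Mup16, and its share was 34.9%. Positions whose sequence held unknown bases (assembly gaps) could not be tested and were left out of these shares. They numbered 150507 in the window, 100338 of them in this stretch, where no site could be called inside a gap. Of 171 bins of 10 kb in the array, the 79 with a share under 50% held 4 sites, the 60 with 50 to under 90% held 22, and the 32 with 90% or more held 13, while 1 array site lay in a bin with under 5000 testable positions. Whether this accounts for the absence of sites was not tested, nor whether other strains carry the same copies as the reference.

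**Figure D4:**
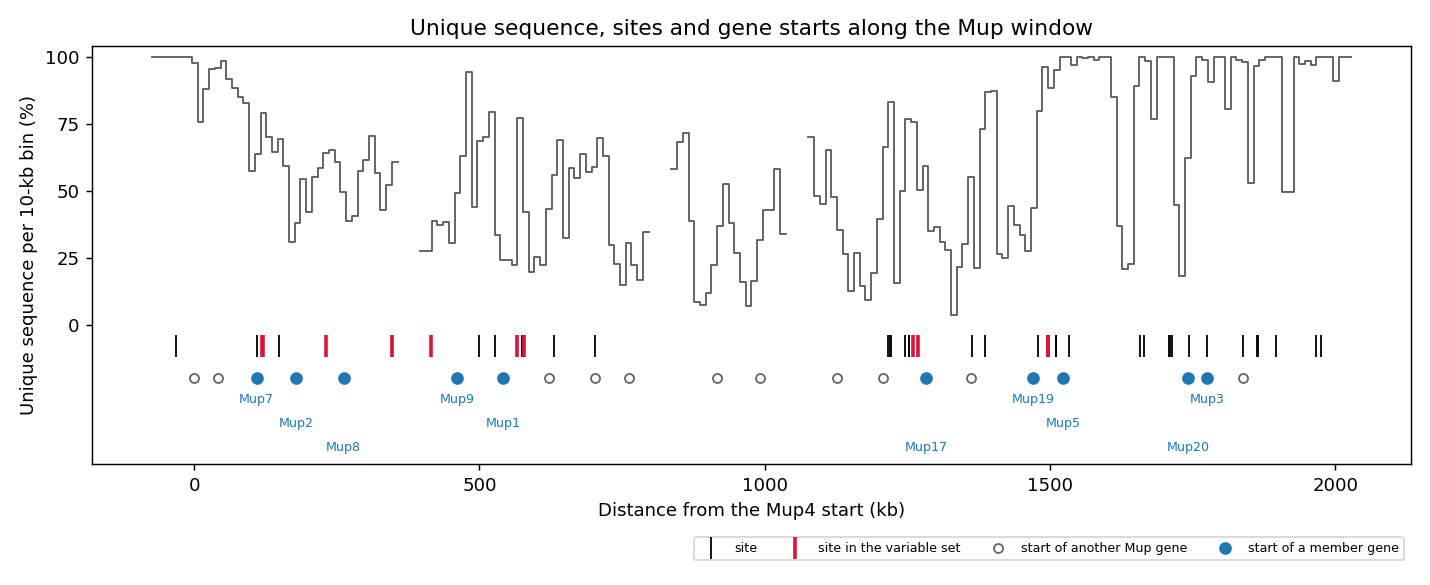
Share of unique 170-base sequences per 10-kb bin in percent (grey line, with breaks at assembly gaps) against distance from the Mup4 start in kb, above ticks for the 46 sites (red for the 11 of the variable set) and circles for the starts of the 21 Mup genes (filled blue for the 10 members). No tick falls in the 513-kb stretch over Mup12 to Mup16, which includes assembly gaps and where 34.9% of testable positions are unique.

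The kilobase upstream of the members ranged from 12.3% unique at Mup8 and 20.3% at Mup17 to 100% at Mup3 and Mup5, with 51.8% at Mup7 and 55.2% at Mup20. Its closest relative was 99.9% identical for Mup17 (Mup15), 99.7% for Mup8 (Mup14), 99.5% for Mup1 (Mup12), 89.1% for Mup5 (Mup6), 88.2% for Mup20 (Mup6) and 87.1% for Mup3 (Mup6). Mup20 and Mup3, each with a site near the start, were thus among the most diverged, and Mup5, also diverged, had none there. Mup7, the other member with a site near its start, was not diverged: its closest relative (Mup18) was 98.7% identical. Whether divergence has a part in which members had such a site was not tested. Of the sites themselves, 11 of 46 (23.9%) had under 90% unique sequence against 1.35% of all sites, down to 44.7% at site 3. Sites of the variable set and the other window sites both had a median share of 100%, with means of 88.2% and 94%. The share was 54% at site 8, which held the strongest peak of the window. With 100 bases in place of 170, the share was 22.7% at site 8 and 41.5% over the array, and the median over window sites was 98.5%. The part of unique sequence in the calls was not tested.

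Window sites were narrower than sites elsewhere, with a median width of 318.5 bases against 498, and poorer in G and C, with a median of 46.6% against 53.9%. A site is a union of peaks over lists, and window sites were called in a median of 2 lists against 5. The part of this in the width was not tested. Sites of the variable set had a median of 53% G and C, and the other window sites 44.2%. Motifs of factors known in liver were looked for on both strands in the 300 bases around each site's center. The growth hormone mediator STAT5 (TTCNNNGAA) had a match at 0 of 46 window sites against 7.48% of all sites, HNF4 (CAAAGTCCA) at 2 (4.35%, sites 29 and 42) against 1.52%, and C/EBP (TTGCNNAA) at 4 (8.7%, sites 1, 9, 35 and 40) against 12.8%. HNF1 and NFI motifs had matches at 0 window sites, against 0.192% and 0.0674% of all sites. A motif without a match says only that these letters do not occur in this window, and site 40 upstream of Mup3 was the one site near a member's start with a match.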

How the data were processed

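Per the labels and the study's methods, the authors aligned paired FAIRE-seq reads with Bowtie to mm9 carrying each strain's SNPs, kept reads with 1 location, removed duplicates, called peaks with F-seq at a feature length of 400 bp and joined the 2 mice of a strain by IDR. The recombinant strains were aligned to mm9 and to the C3H/HeJ version, without a statement of which alignment gave the lists. The deposited signal value of a peak is an F-seq score with no stated scaling between strains, and peak positions were used as deposited. The variable and common sets are the authors' 5% of sites at either end of DESeq adjusted p-values, which were not printed or used otherwise. The members and lists were chosen with earlier results of these data known. Sites are the union of overlapping or touching peaks of 9 lists, and a strain called a site when its peaks shared at least 1 bp with it. Percentiles are ranks of the score within a list, and a site with several peaks took the highest. Genes and starts came from GENCODE M1 on the same build, and distances run to the nearest annotated start unless stated. Copies of 170-base sequences (100 bases as an alternative) were counted exactly on both strands of the genome. Site pairs were compared with blastn 2.17.0 at 90% identity over 100 bases and printed sets aligned with MAFFT 7.526. Analyses used Python 3.11.15, pandas 2.3.3, numpy 2.4.6, numba 0.67.0, pysam 0.24.0, samtools 1.23.1, Biopython 1.88 and matplotlib 3.10.9. Merging and calls matched direct counts in 50 of 50 simulated runs each and copy counts in 20 of 20. Sites named singly were those in either authors' set, within 1 kb of a member's start, the 5 with the highest percentile, the 5 with the largest SD among those called and missing in at least 2 inbred strains, and those called in 1 of C57BL/6J and C3H/HeJ; all others were named after their values were seen.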

Additional observations from a re-analysis of the deposited data

How the results depend on the processing

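No paired analysis was possible because each strain has 1 list that joins both mice, and for the same reason no mouse could be left out. Of 52 alternatives, 36 stayed within 1.5 times the reported value. With the 20000 strongest peaks of each list, the window held 27 sites, 0 called in all lists and 13 in 1 list. C57BL/6J then called 6 sites, AKR/J 16, DBA/2J 15, BXH19/TyJ 7, CBA/J 5 and BALB/cJ 3, while A/J stayed at 5, C3H/HeJ called 9 and BXH2/TyJ 8, so that BALB/cJ and not A/J called the fewest. Sites nearest to a member numbered 7 by the nearest start and 32 among protein-coding genes. Leaving out each strain in turn gave 1 to 2 sites called in all remaining lists, with 2 without DBA/2J and without A/J, and 14 to 24 called in 1 list, with 14 without DBA/2J. The median SD at sites nearest to members was 30.4 over strains with a peak only and 0.88 on the log2 scale of the signal value, and both rest on the 3 sites with at least 2 inbred peaks. The cause of these shifts was not tested beyond the smaller number of peaks or genes. Read depth, which was not analysed here, and the lack of replicate lists limit every strain difference, and a site that was not called may be open below the threshold of its list.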
